A study of Sus scrofa with 4 samples.

Results

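Autophagosome formation and mitophagy were examined through 39 genes in porcine granulosa cells, the somatic cells that surround the oocyte in the ovarian follicle. The genes were taken by symbol from the deposited table of RNA sequencing counts, which holds 29884 gene symbols, and all 39 were present. They cover the ULK kinase complex, the lipid kinase complex that follows it, membrane and lipid supply, the ATG12 conjugation enzymes, the ATG8 proteins and the enzymes that process them, cargo receptors, mitophagy genes and transcriptional regulators of the TFEB family. The cells came from antral follicles of pigs. Per the series' design text, some cells were used to measure the cell cycle by flow cytometry, and the rest were sorted into groups according to how many were in G0/G1, the resting and pre-synthesis phases. The 4 libraries are 2 from the high G0/G1 group and 2 from the low G0/G1 group. No treatment, genotype, breed or age is given in the labels. They also leave unsaid whether a library is 1 follicle or a pool, and whether a group's libraries represent different pigs; the p-values therefore reflect only the variation among these samples, which may be technical.

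Autophagy encloses cytoplasm in a double membrane, the autophagosome, and delivers it to the lysosome. The ULK kinase complex starts the process, a phosphatidylinositol 3-kinase complex built around BECN1 marks the site, and 2 ubiquitin-like conjugation systems attach ATG8 proteins (the LC3 and GABARAP proteins) to the growing membrane, where cargo receptors dock. Mitophagy is the removal of mitochondria by this route, through receptors on the outer mitochondrial membrane or through PINK1 and ubiquitin. In the ovary, autophagy is best known from work on follicular atresia, in which granulosa cells die. RNA levels, which are what was measured, do not report how much autophagy took place.

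Library totals ran from 27442850 to 32674921 counts. Each of the 39 genes had a count in every library, from 56 to 18545 reads, and passed the filter on low counts. All 9 granulosa markers checked had counts in every library, with INHA, the inhibin alpha subunit, at 6705 to 10576 CPM (counts scaled to library size). Of these 9 markers 6 were lower in both high libraries and 3 higher in both. FSHR, among the 6, was at 22.5 and 26.0 CPM in high and 81.6 and 85.9 in low (edgeR adjusted p = 0.125, DESeq2 adjusted p = 1.1e-07). The sum of the 9, mostly INHA, was 11045 CPM in high replicate 2, 11398 and 12930 in the low libraries and 18183 in high replicate 1. Their mean deviation from each gene's mean over the 4 libraries (log2 CPM) was -0.60 in high replicate 2 and 0.16 to 0.22 in the others. Of 5 oocyte genes, ZP2 and FIGLA had 0 counts in all libraries, and ZP3 and DDX4 reached at most 0.176 CPM. The other, GDF9, was at 6.40 to 11.5 CPM. The summed level of 5 leukocyte markers was 0.596 to 3.23 CPM. Low replicate 2 had the highest sum of 6 stromal fibroblast and smooth muscle markers, at 1103 CPM against 43.7 to 116 in the other 3 libraries. COL1A1, COL3A1, DCN and ACTA2 were highest there. PDGFRA and MYH11 were instead highest in high replicate 2, at 18.6 and 5.37 CPM against 6.17 and 3.68 in low replicate 2. Low replicate 2 also had 51.5 CPM of CYP17A1, a theca cell enzyme, against 0.125 to 1.02 elsewhere. CYP17A1 and the theca markers INSL3, STAR and NR2F2 together summed to 377 CPM in low replicate 2 and to 59.3 to 104 elsewhere. INSL3 was lower in both high libraries, at 17.6 and 30.0 CPM against 75.3 and 260 in low (edgeR adjusted p = 0.169, DESeq2 adjusted p = 0.00029). NR2F2 was higher in both high libraries, at 31.4 and 33.3 CPM against 27.0 and 25.9 in low. LHCGR, a theca marker that granulosa cells also express late in follicle growth, was higher in both high libraries. It was at 1001 and 277 CPM in high and 148 and 95.5 in low, a 5.24-fold difference (edgeR adjusted p = 0.176, DESeq2 adjusted p = 0.0024). The 5 endothelial markers summed to 40.4 CPM in high replicate 2 and 49.1 in low replicate 2, against 12.9 and 6.74 in high and low replicate 1. KDR alone gave 29.5 CPM of the sum in high replicate 2. The others, PECAM1, CDH5, VWF and TEK, were each highest in low replicate 2. High replicate 2 stood apart in the cell cycle, with a sum of 270.2 CPM for 6 S phase and mitosis genes against 799.99 for its partner and 1900.5 and 1741 for the low pair. It had the lowest HSD17B1, an enzyme of oestradiol synthesis, at 782 CPM against 2082 to 2827 in the others. The part of these differences in the results below was not tested. Values without a library are given for the counts, and for those of the 39 genes where leaving it out changes the sign, ends a call or moves the fold by over 1.5 times. In bulk RNA, a difference in the share of a cell type and a difference in RNA per cell cannot be told apart.

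Most of the autophagy genes were higher in the high G0/G1 libraries, and a few stood out. GABARAPL1, an ATG8 protein, was 3.91-fold higher and the autophagy transcription factor gene TFEB 3.85-fold. MITF, of the same family as TFEB, was 3.60-fold higher, TP53INP2 2.61-fold, PINK1 2.43-fold and the cargo receptor gene SQSTM1 2.23-fold. BNIP3, a mitophagy receptor, went the other way, at 0.404 times the level of the low libraries. Single libraries moved these values. Without high replicate 2, TFEB fell from 1.95 to 0.92 on the log2 scale, and MITF from 1.85 to -0.04. Over the 4 leave-outs, PINK1 (1.28) ran from 0.87 to 2.00 and TP53INP2 (1.38) from 0.85 to 2.12. GABARAPL1 (1.97) ran from 1.48 to 2.81, SQSTM1 (1.16) from 0.77 to 1.46 and BNIP3 (-1.31) from -1.52 to -1.06. Of the 39 genes, 32 had a positive log2 fold change (high minus low) and 7 a negative one, with a median of 0.30. Among all 14352 genes tested, 7086 were positive and the median was -0.01. The 39 were chosen with earlier results of these data known, so comparisons with all genes, here and below, are not independent of that choice. Magnitudes were ordinary: 21 of the 39, or 53.8%, differed by less than 0.5 on the log2 scale, against 52.2% of all genes tested.

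None of these differences passed the threshold of the main test. With edgeR's quasi-likelihood test on all genes, 0 of the 39 had an adjusted p under 0.05, where 0% of all genes tested did. The smallest among the 39 was 0.153, for BNIP3, and the largest 0.970, for WIPI2. Taking p under 0.05 with no adjustment, 13 genes were higher and 1 lower, that is 33.3% and 2.56% of the 39, beside 9.92% and 10.8% of all genes tested. Limma-voom also called 0 of the 39. At an unadjusted p under 0.05 it had 12 higher and 1 lower, beside 9.85% and 11.9% of all genes. DESeq2, another count model, called 5 higher and 1 lower at an adjusted p under 0.05, where it called 5.79% of genes higher and 5.48% lower. Those 6 were GABARAPL1, TFEB, SQSTM1, ATG14 and ATG13 on the higher side and BNIP3 on the lower. In 20 of the 39, each high library exceeded each low one, beside 26.8% of all genes tested, and in 4 each was below, beside 29.8%. Some of those gaps are narrow, as for MAP1LC3B (47.6 against 47.5 CPM) and ATG4C (9.97 against 9.95 CPM).

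High replicate 2 had the highest level of the 4 libraries in 25 of the 39 genes, against 7 for high replicate 1, 5 for low replicate 1 and 2 for low replicate 2. Without high replicate 2, 25 of the 39 were positive with a median of 0.12, and 7 were higher and 1 lower at an unadjusted p under 0.05, beside 7.83% and 8.60% of all genes then tested. Without low replicate 2, the library with the high stromal markers, 31 were positive with a median of 0.44, and 4 were higher and 1 lower at that p, beside 5.54% and 5.36% of all genes. Without low replicate 1 the counts at that p were 8 and 1, beside 6.46% and 4.81%, and without high replicate 1 they were 13 and 1, beside 11.9% and 15.2%, with a median of 0.46. DESeq2's calls also depended on single libraries. None of the 6 kept its call when low replicate 2 was left out, and some of the 39 outside the 6 were called in these fits.

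**Figure D1:**
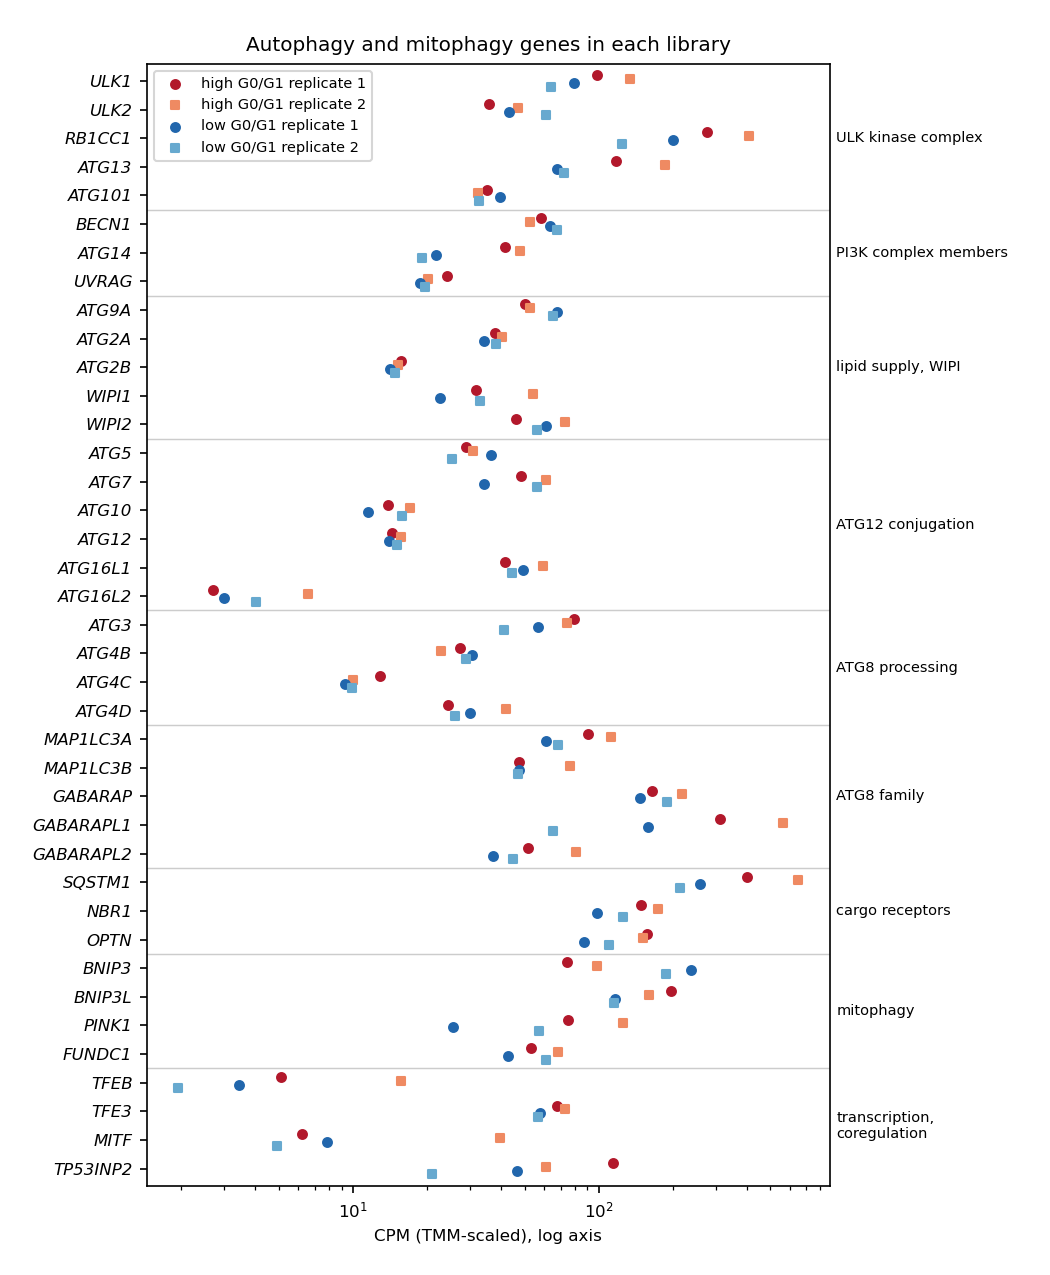
Level of each of the 39 genes in each of the 4 libraries, in CPM on a log axis, with genes ordered by role. Each point is 1 library. For GABARAPL1, ATG13, ATG14 and SQSTM1 both high G0/G1 points lie to the right of both low ones, and for BNIP3 both lie to the left.

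The ULK kinase complex, which receives signals from mTORC1 and AMPK and starts autophagosome formation, had 3 of its 5 genes higher at an unadjusted p under 0.05, namely ATG13, RB1CC1 and ULK1, beside 9.92% of all genes. ATG13 alone had such a p when high replicate 2, or low replicate 2, was left out. ATG13 (chromosome 2, 15856859 to 15916122 in Sscrofa11.1), the adaptor that holds the complex together, stood at 118 and 186 CPM in high G0/G1 and 68.0 and 72.1 in low G0/G1. The groups did not overlap, and the low libraries were close to each other while the high ones were not. Its log2 fold change was 1.12 ± 0.28 (SE; edgeR adjusted p = 0.170, DESeq2 adjusted p = 0.018), and without high replicate 1 it passed in edgeR too (1.40, adjusted p = 0.0398). DESeq2 kept ATG13 without that library and lost it without high replicate 2, low replicate 1 or low replicate 2 (adjusted p = 0.148, 0.336 and 0.342). RB1CC1, which encodes the scaffold FIP200, was at 276 and 409.9 CPM in high and at 202 and 125 in low, a log2 fold change of 1.07 ± 0.34 (edgeR adjusted p = 0.199). ULK1, the kinase itself, was at 98.2 and 134 CPM against 79.1 and 63.9 (0.70 ± 0.25, edgeR adjusted p = 0.219). These 2 genes did not overlap between groups either, with high replicate 2 the highest and low replicate 2 the lowest in each.

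The other genes of the complex overlapped between groups. ULK2, the paralog of ULK1, had 35.8 and 47.0 CPM in high and 43.3 and 61.3 in low (-0.34 ± 0.28). ATG101, a partner of ATG13, had 32.4 to 35.1 CPM in high and 32.6 to 39.8 in low (-0.10 ± 0.23, and 0.11 with low replicate 1 left out). The log2 ratio of ULK1 to ULK2 counts within a library, which does not depend on scaling between libraries, was 1.46 and 1.51 in high and 0.87 and 0.06 in low. The size of such a ratio depends on gene length, and only its difference between libraries is read here.

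In the phosphatidylinositol 3-kinase complex, ATG14 and BECN1 went in opposite directions. ATG14 (chromosome 1, 184701020 to 184743752), the subunit that directs the complex to autophagosome formation, was at 41.7 and 47.9 CPM in high and at 21.8 and 19.0 in low. Libraries of a group lay close together and the groups were well apart, a 2.19-fold difference. The log2 fold change was 1.13 ± 0.23 (edgeR adjusted p = 0.155, DESeq2 adjusted p = 0.0046) and stayed between 1.03 and 1.30 with any 1 library left out, the narrowest range among the 6 genes that DESeq2 called. DESeq2 kept the call without high replicate 1 (adjusted p = 0.0128) and lost it without high replicate 2 (0.0951), low replicate 1 (0.232) or low replicate 2 (0.457). BECN1, the core of the complex, was at 58.3 and 52.7 CPM in high and 63.5 and 67.5 in low, lower without overlap but by a small amount (-0.24 ± 0.20, edgeR adjusted p = 0.521). UVRAG, which takes the place of ATG14 in the complex that acts on endosomes, had 24.2 and 20.3 CPM in high and 18.8 and 19.7 in low (0.21 ± 0.24).

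Of the 5 genes of membrane and lipid supply, 0 had an unadjusted p under 0.05 and 4 differed by less than 0.5 on the log2 scale. Over all genes tested, 9.92% were higher and 10.8% lower at that p, and 52.2% differed by less than 0.5. ATG9A, the scramblase of the vesicles that seed the autophagosome, was lower in both high libraries, at 50.4 and 52.4 CPM against 67.8 and 65.2, with a log2 fold change of -0.37 ± 0.19 (edgeR adjusted p = 0.326). The lipid transfer proteins ATG2A and ATG2B had log2 fold changes of 0.11 ± 0.21 and 0.10 ± 0.25. WIPI1 and WIPI2 bind phosphatidylinositol 3-phosphate on the forming membrane. WIPI1 was at 31.6 and 53.9 CPM in high and 22.6 and 32.9 in low (0.62 ± 0.36, edgeR adjusted p = 0.364), and high replicate 2 alone stood above the rest. Its span overlaps that of ARSG, so reads of the pair could be mixed where counting ignored strand. WIPI2 had 46.3 and 73.0 CPM in high and 61.0 and 56.1 in low, a log2 fold change of 0.03 ± 0.28 that was -0.34 with high replicate 2 left out and -0.02 with low replicate 2 left out.

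The ATG12 conjugation system had overlapping libraries in all 6 genes and differences under 0.5 on the log2 scale in all 6, beside 52.2% of all genes. At an unadjusted p under 0.05 there were 0 of 6, beside 9.92% of all genes higher and 10.8% lower. ATG12, the ubiquitin-like protein, ranged only from 14.1 to 15.7 CPM over the 4 libraries (0.05 ± 0.26, and -0.01 with high replicate 2 left out), and its acceptor ATG5 had a log2 fold change of -0.05 ± 0.27 that was 0.31 with low replicate 1 left out. ATG7, the activating enzyme shared by both conjugation systems, was at 48.4 and 61.4 CPM in high and at 34.2 and 56.4 in low (0.28 ± 0.31, edgeR adjusted p = 0.645). ATG10, the conjugating enzyme, and ATG16L1, which carries the conjugate to the membrane, had 0.18 ± 0.31 and 0.11 ± 0.26, and the value of ATG16L1 was -0.17 without high replicate 2. The spans of ATG5, ATG7 and ATG12 overlap those of other genes (AP3S1 for ATG12). ATG16L2, the related but low gene, was at 2.68 and 6.56 CPM in high and 2.98 and 4.02 in low, and its log2 fold change of 0.40 ± 0.58 became -0.38 without high replicate 2.

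Among the enzymes that process ATG8 proteins, ATG3 alone had an unadjusted p under 0.05. ATG3, the conjugating enzyme that attaches ATG8 proteins to phosphatidylethanolamine, was at 79.4 and 74.0 CPM in high and at 56.9 and 41.0 in low, without overlap (0.65 ± 0.24, edgeR adjusted p = 0.226). Its span overlaps that of SLC35A5. The ATG4 proteases, which prime ATG8 proteins and release them from membranes, did not move as one. ATG4B was at 27.4 and 22.7 CPM in high and 30.5 and 28.9 in low (-0.25 ± 0.23, edgeR adjusted p = 0.574), ATG4C had a log2 fold change of 0.25 ± 0.31, and ATG4D, also at 0.25 ± 0.33, was high in high replicate 2 only (42.2 CPM, against 24.4 to 30.0 elsewhere), and was at -0.20 without that library. The spans of these 3 genes overlap those of other genes.

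The ATG8 family had positive differences in all 5 genes, of very unequal size. GABARAPL1 (chromosome 5, 61758127 to 61767427), a GABARAP paralog that is a known target of FOXO transcription factors, was at 312 and 564 CPM in high and at 159 and 65.5 in low. Every library was well apart from the next, and the lowest high library was above the highest low one. The log2 fold change was 1.97 ± 0.53 (edgeR adjusted p = 0.176, DESeq2 adjusted p = 0.0052), between 1.48 and 2.81 with 1 library left out. DESeq2 kept the call without high replicate 1, high replicate 2 or low replicate 1 (adjusted p = 9.6e-05, 0.0422 and 9.8e-05) and lost it without low replicate 2 (0.161).

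MAP1LC3A, an LC3 protein, was at 90.8 and 113 CPM in high and at 61.3 and 68.3 in low (0.65 ± 0.22, edgeR adjusted p = 0.205). GABARAPL2 had 51.8 and 81.2 CPM in high and 37.2 and 45.0 in low (0.69 ± 0.29, edgeR adjusted p = 0.260). MAP1LC3B, the LC3 protein most used as an autophagosome marker, had 47.6 and 76.8 CPM in high and 47.5 and 47.2 in low, so high replicate 1 was level with the low libraries (0.39 ± 0.29, and 0.01 without high replicate 2). GABARAP overlapped between groups, at 165 and 218 against 147 and 190.4 CPM (0.18 ± 0.26, and -0.03 without high replicate 2). Within libraries, the log2 ratio of GABARAPL1 to GABARAPL2 counts was 2.59 and 2.79 in high and 2.09 and 0.54 in low, while that of MAP1LC3B to MAP1LC3A was -0.93 and -0.55 in high and -0.37 and -0.53 in low.

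**Figure D2:**
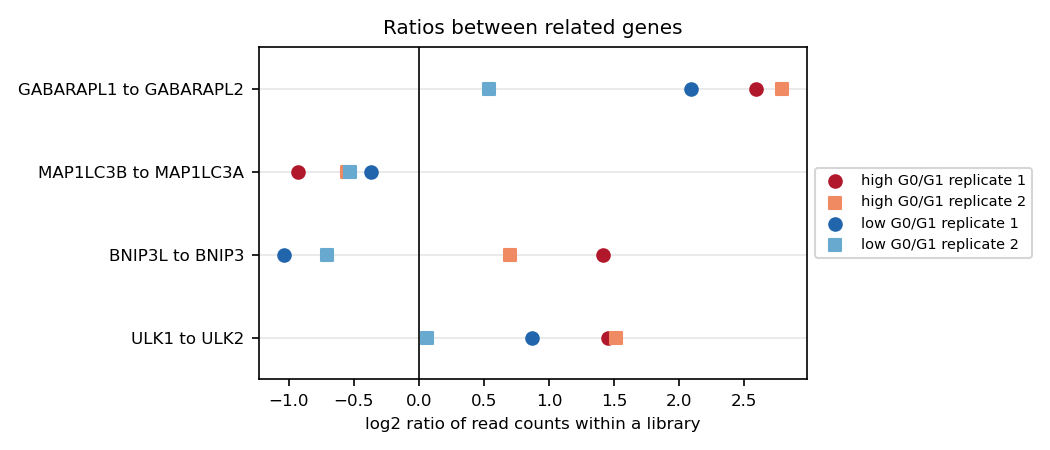
Log2 ratio of the read counts of 2 related genes within each library, which needs no scaling between libraries. Only differences between libraries are read, since the size of a ratio depends on gene length. The BNIP3L to BNIP3 ratio is higher in both high G0/G1 libraries (1.42 and 0.70) than in both low ones (-1.04 and -0.71). For MAP1LC3B to MAP1LC3A the nearest libraries of the 2 groups are almost level (-0.55 and -0.53).

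All 3 cargo receptors were higher in both high libraries, beside 26.8% of all genes tested. SQSTM1 (chromosome 2, 78752768 to 78763998), which encodes p62 and links ubiquitinated cargo to LC3, was at 403 and 651 CPM in high and at 258 and 214 in low. The log2 fold change was 1.16 ± 0.31 (edgeR adjusted p = 0.176, DESeq2 adjusted p = 0.019), and DESeq2 lost the call when high replicate 2 (adjusted p = 0.123), low replicate 1 (0.172) or low replicate 2 (0.442) was left out. Its span overlaps that of MRNIP in the RefSeq annotation, and the strand setting of the counting is not given, so reads of the pair could be mixed. OPTN, the receptor optineurin, was at 157 and 151 CPM in high and 87.5 and 111 in low, with the high libraries close together (0.64 ± 0.22, edgeR adjusted p = 0.209). NBR1, a receptor related to p62, was at 149 and 174 against 98.2 and 125 CPM (0.53 ± 0.23, edgeR adjusted p = 0.271), and its span overlaps that of another gene.

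The mitophagy genes divided. BNIP3 (chromosome 14, 140362123 to 140371951), a receptor on the outer mitochondrial membrane and a textbook gene of the response to hypoxia, was at 74.2 and 98.4 CPM in high and at 239 and 189 in low. It was the only one of the 39 that was lower at an unadjusted p under 0.05. Its log2 fold change was -1.31 ± 0.26 (edgeR adjusted p = 0.153, DESeq2 adjusted p = 0.0031) and lay between -1.52 and -1.06 with 1 library left out. DESeq2 lost the call without low replicate 1 (adjusted p = 0.332) and without low replicate 2 (0.113).

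BNIP3L, the close paralog also called NIX, went the opposite way, with 198 and 160.2 CPM in high and 116 in each low library (0.63 ± 0.21, edgeR adjusted p = 0.208). The log2 ratio of BNIP3L to BNIP3 counts within a library was 1.42 and 0.70 in high and -1.04 and -0.71 in low, a difference of 1.93 between the group means, with SDs of 0.50 and 0.24. PINK1, the kinase that marks damaged mitochondria, was at 75.0 and 126 CPM in high and at 25.5 and 57.0 in low, without overlap but with wide spread in both groups (1.28 ± 0.47, edgeR adjusted p = 0.221). Leaving out high replicate 2 gave PINK1 a log2 fold change of 0.87, and leaving out low replicate 2 gave 2.00. FUNDC1, another outer membrane mitophagy receptor, overlapped between groups at 53.3 and 68.1 against 42.7 and 60.9 CPM (0.23 ± 0.27).

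The 4 transcriptional regulators had a median log2 fold change of 1.62, which was 0.58 without high replicate 2, below the 0.67 of the cargo receptors in the same fit. TFEB (chromosome 7, 36870240 to 36920887), a master regulator of lysosomal and autophagy genes, was a low gene, at 5.10 and 15.7 CPM in high and at 3.45 and 1.94 in low. Its log2 fold change of 1.95 ± 0.67 (edgeR adjusted p = 0.211, DESeq2 adjusted p = 0.047) ran from 0.92 to 2.53 with 1 library left out, lowest without high replicate 2, where DESeq2's adjusted p was 0.678. DESeq2 also lost TFEB without low replicate 1 (0.0854) and low replicate 2 (0.437). TFE3, its paralog, was at 67.4 and 73.3 CPM in high and 57.7 and 56.8 in low, a small difference with little spread (0.30 ± 0.19, edgeR adjusted p = 0.418). MITF, the third member of that family here, was at 39.7 CPM in high replicate 2 and at 4.89 to 7.84 in the other 3 libraries, and its log2 fold change of 1.85 ± 0.88 ran from -0.04 without that library to 2.63 with the other high one left out. TP53INP2, which moves from the nucleus to autophagosomes and binds ATG8 proteins, was at 115 and 61.0 CPM in high and at 46.4 and 21.1 in low (1.38 ± 0.49, edgeR adjusted p = 0.217). The value ran from 0.85 without high replicate 1 to 2.12 without low replicate 1, and DESeq2 called TP53INP2 without the latter (adjusted p = 0.0143) and without high replicate 2 (0.0089). It is one of the genes in which high replicate 1, not high replicate 2, was the highest library.

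**Figure D3:**
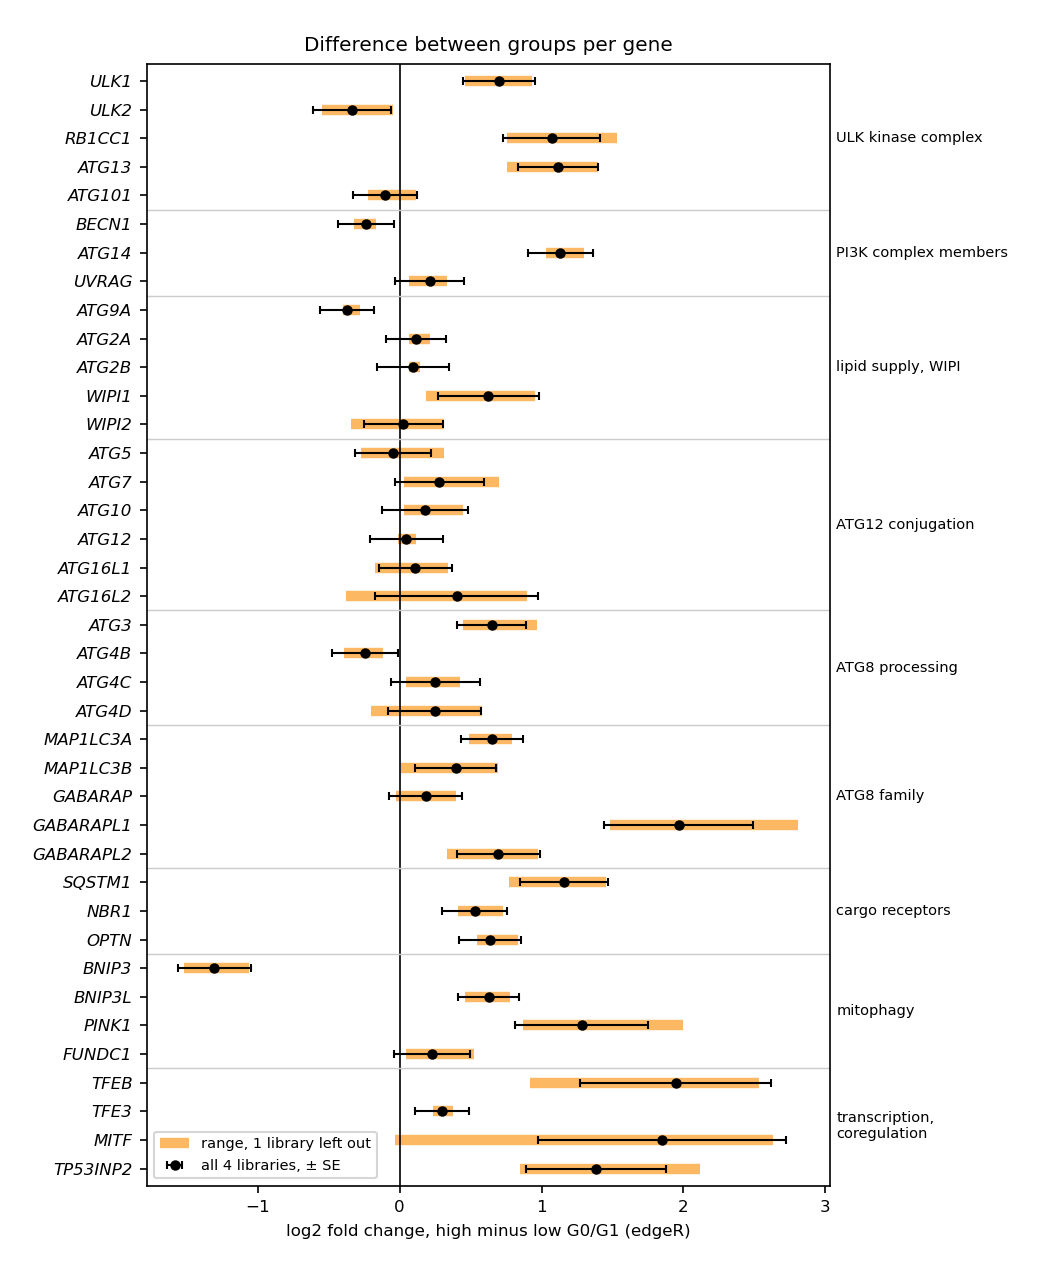
Log2 fold change (high minus low G0/G1) of each gene from edgeR, with its standard error, and the range of the same value when 1 of the 4 libraries is left out (orange). The ATG14 range runs from 1.03 to 1.30, while that of MITF runs from -0.04 to 2.63.

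By role, the libraries were ordered in different ways. The mean deviation of a group's genes from their own mean over the 4 libraries (log2 CPM) put both high libraries above both low ones in the ULK complex, the phosphatidylinositol 3-kinase genes, the ATG8 processing enzymes, the ATG8 family, the cargo receptors and the transcriptional regulators. For the ATG8 family the values were 0.10 and 0.68 in high and -0.34 and -0.44 in low, and for the cargo receptors 0.24 and 0.53 against -0.45 and -0.31. In the ATG12 conjugation group the values were -0.14 and 0.29 in high and -0.16 and 0.01 in low, so the groups overlapped. The lipid supply and mitophagy groups overlapped as well.

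**Figure D4:**
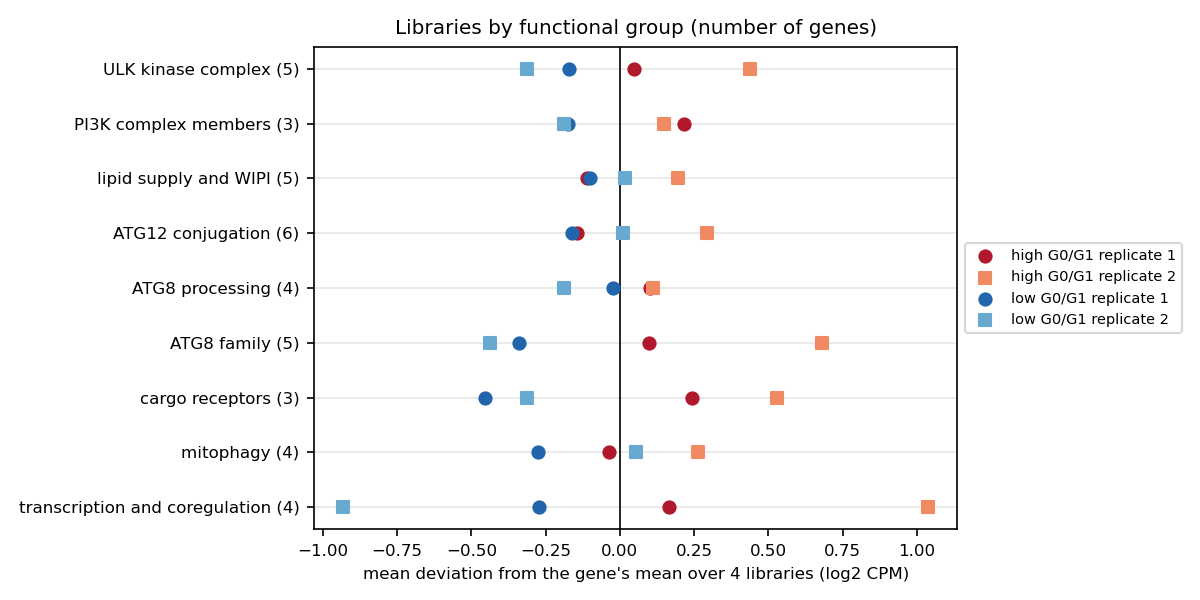
Mean deviation of the genes of each role from their own mean over the 4 libraries, in log2 CPM, with 1 point per library and the number of genes in brackets. High replicate 2 is highest in 8 of the 9 roles, and the order of the other 3 libraries changes from role to role.

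The rest of the pathway was read from 62 further genes in 6 lists, of which 60 were tested. By edgeR 0 passed the threshold, and 14 were higher and 2 lower at an unadjusted p under 0.05. Over all genes the shares at that p were 9.92% and 10.8%. The number higher at that p fell without high replicate 2, low replicate 1 or low replicate 2, as did the share of all genes. The median log2 fold change was 0.20, and ran from 0.10 without high replicate 2 to 0.35 without high replicate 1. DESeq2 called 9 higher and 0 lower, where it called 5.79% of all genes higher and 5.48% lower. Of the 9 DESeq2 calls, NCOA4 and FNIP1 held without any 1 library other than low replicate 2 (adjusted p = 0.0555 and 0.213), and each of the other 7 was lost in at least 2 of the 4 leave-outs.

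In the list of mTORC1 and AMPK control, 7 of 18 genes were higher and 0 lower at an unadjusted p under 0.05, beside 9.92% and 10.8% of all genes, and the median was 0.23. The count of 7 was smaller with any 1 library left out, as was the share of all genes except without high replicate 1. The median ran from 0.12 without high replicate 2 to 0.43 without high replicate 1. FNIP1, a partner of folliculin in the control of mTORC1 and TFEB, was at 104 and 100.3 CPM in high and 42.2 and 22.6 in low (1.65 ± 0.34, edgeR adjusted p = 0.156, DESeq2 adjusted p = 0.0018). PRKAA2 and PRKAA1, the catalytic subunits of the energy sensor AMPK, which activates ULK1, had 1.36 ± 0.29 and 0.99 ± 0.22. PRKAA1 was at 45.8 and 45.4 CPM in high and at 24.8 and 21.3 in low, with both pairs of libraries close together. Among 6 further genes of the phosphatidylinositol 3-kinase complex and its regulators, AMBRA1, a BECN1 partner, was at 141 and 165 CPM in high and 72.2 and 60.1 in low (1.21 ± 0.22, edgeR adjusted p = 0.148, DESeq2 adjusted p = 0.0013). PIK3R4, the regulatory subunit, had 0.68 ± 0.25, and NRBF2, an ATG14 partner, had 0.64 ± 0.29.

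Of 8 further cargo receptor genes 3 were higher and 0 lower at an unadjusted p under 0.05, beside 9.92% and 10.8% of all genes. Their median log2 fold change of 0.43 ran from 0.29 without high replicate 2 to 0.52 without low replicate 1. NCOA4, the receptor that delivers ferritin to autophagosomes, was at 668 and 984 CPM in high and at 259.6 and 174 in low (1.93 ± 0.33, edgeR adjusted p = 0.142, DESeq2 adjusted p = 2.9e-05). RETREG1, a receptor for the endoplasmic reticulum, was at 127 and 891 CPM in high and 100.4 and 29.9 in low, and its log2 fold change of 2.97 ± 1.07 ran from 0.96 when high replicate 2 was left out to 4.17 when low replicate 1 was. TAX1BP1, a ubiquitin-binding receptor, was at 264 and 176 against 142 and 126 CPM (0.72 ± 0.27).

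Among 10 further mitophagy genes 0 were higher and 1 lower at an unadjusted p under 0.05, beside 9.92% and 10.8% of all genes. Their median of 0.05 was between -0.15 and 0.22 with 1 library left out. PHB2, an inner membrane mitophagy receptor, was at 108 and 104 CPM in high and 156 and 163 in low (-0.59 ± 0.19, edgeR adjusted p = 0.202). USP30, a mitochondrial deubiquitinase that opposes mitophagy, had 0.57 ± 0.23, and VDAC1, a channel of the outer mitochondrial membrane, had -0.38 ± 0.20. Of the 5 membrane and conjugation genes tested, 4 were positive and 1 negative, with a median of 0.70. ZFYVE1, which marks the site of autophagosome formation, had 1.34 ± 0.34, and TMEM41B, a lipid scramblase, 0.70 ± 0.20. WDR45, which is related to the WIPI proteins, had 0.81 ± 0.34. ATG4A, the negative one, was at 9.19 and 8.67 CPM in high and 10.8 and 22.4 in low (-0.89 ± 0.43, and -0.26 without low replicate 2). In autophagosome to lysosome fusion, 12 of 13 genes differed by less than 0.5 on the log2 scale, beside 52.2% of all genes. Their median was 0.04. VAMP8, a fusion SNARE, had the smallest p there, at 18.2 and 19.8 CPM in high and 25.9 and 36.6 in low (-0.72 ± 0.27, edgeR adjusted p = 0.231). VPS18 and VPS39, subunits of the tethering complex, had 0.45 ± 0.27 and 0.36 ± 0.23.

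**Figure D5:**
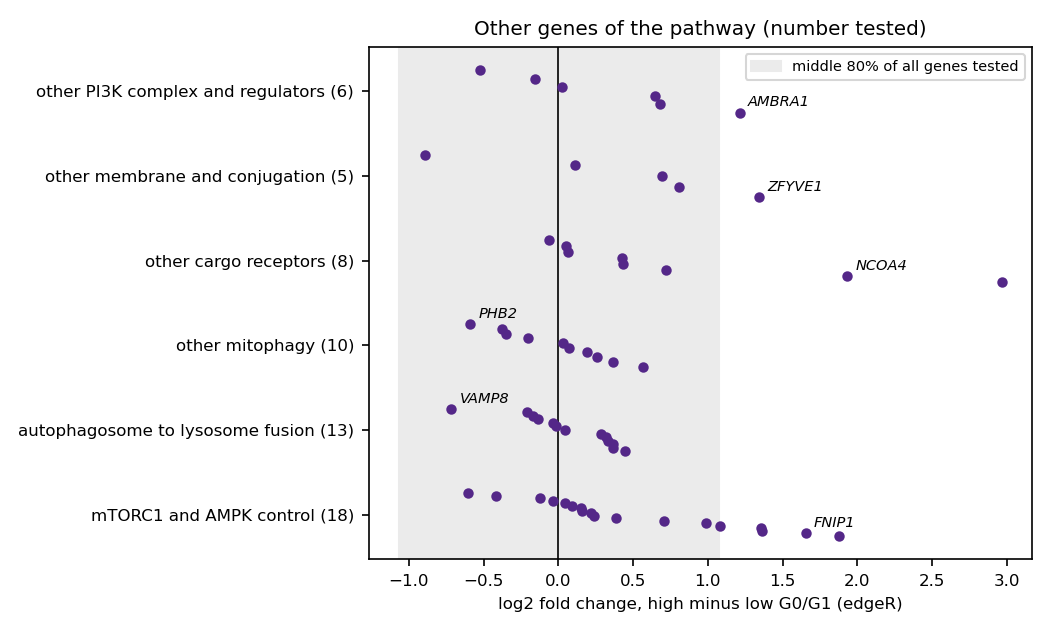
Log2 fold change (high minus low G0/G1) of 60 further genes of the pathway by list, with 1 point per gene and the gene of smallest p named in each list. The grey band holds the middle 80% of all genes tested (-1.07 to 1.07), and all genes of autophagosome to lysosome fusion lie inside it.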

How the data were processed

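RNA from 4 libraries of porcine granulosa cells was sequenced. The authors deposited 1 table of raw read counts per gene symbol, and the submitters' processing notes name HISAT2 and the build Sscrofa11.1. The sources used here do not name the counter, the annotation release or the strand setting. All 39 symbols matched the RefSeq table of Sscrofa11.1, which gave the coordinates, and 10 overlap the span of another gene there. VMP1, on 1 of the lists of further genes, was not analysed here. 1 further gene is not reported here, for a reason unrelated to its values; it was taken off its list after they were seen, and the counts leave it out.

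All genes were fitted with edgeR 4.0.16 in R 4.3.3 (filterByExpr, minimum count 10 and minimum total 15; TMM; glmQLFit and glmQLFTest; no covariate), high against low, with Benjamini-Hochberg adjustment over the 14352 genes tested and a threshold of 0.05. Standard errors were taken as |log2 fold change| divided by the square root of F. CPM, counts scaled to library size, uses TMM-scaled totals, and log2 CPM a prior count of 2. Alternatives were DESeq2 1.42.0 and limma 3.58.1 (voom) on the same genes, RLE scaling, no filter, and leaving out each library; DESeq2 without each library was added after seeing the data. Replicate numbers follow the listing order and were not used to pair libraries. The labels carry a code per library that they do not explain; both codes of replicate 2 begin with W, and whether these libraries share a source was not tested. The genes and lists were chosen with earlier results of these data known. In each role, the 2 genes of smallest p and all with an unadjusted p under 0.05 get values per library, as do some others, chosen after their values were seen. Up to 3 further genes per list are named, those of smallest p whose mean log2 CPM reached 1. ATG4A, DEPTOR and RRAGD were named outside this rule, after their values were seen.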

Additional observations from a re-analysis of the deposited data

How the results depend on the processing

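With only 2 libraries in a group, single libraries moved the calls. The count of all genes called by edgeR was 0, against 1492 with DESeq2 and 5 without the filter on low counts, and ranged from 0 to 954 with 1 library left out. Among the 39 genes the count called was 0, against 6 with DESeq2, and ranged from 0 to 2 with 1 library left out, the 2, ATG13 and MITF, being called without high replicate 1. Their median log2 fold change of 0.30 ranged from 0.12 to 0.46 with 1 library left out, the lowest without high replicate 2. The count of genes whose groups did not overlap, 24, was 22 to 25 under the other methods and 29 to 36 with 1 library left out, where a group of 1 library makes non-overlap easier for every gene. By direction, the 20 higher became 31 without high replicate 1 and the 4 lower became 9 without high replicate 2. Over all genes tested, the share higher without overlap went from 26.8% to 39.7% in the former fit. The share lower without overlap went from 29.8% to 39.9% in the latter. ATG16L2 changed sign, from 0.40 to a range of -0.38 to 0.90 with 1 library left out, as did WIPI2, MITF, GABARAP, ATG4D, ATG16L1 and ATG12 without high replicate 2, WIPI2 without low replicate 2, and ATG5 and ATG101 without low replicate 1. RLE scaling, limma-voom and dropping the filter moved none of the 20 genes named by the rule across the threshold. The causes were not tested.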

Other observations

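The 39 genes together took 0.307% and 0.414% of all counts in high G0/G1 and 0.239% and 0.243% in low G0/G1. The 5 ATG8 genes summed to 668 and 1052.6 CPM in high and to 451 and 416 in low, and the 3 cargo receptors to 709 and 976 against 444 and 449.9. The 2 high libraries differed from each other by over 1.5 times in 13 of the 39 genes (33.3%, against 36.9% of all genes tested), and the 2 low libraries in 7 (17.9%, against 25.5%).

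DESeq2 also called a pair of mTORC1 regulators, named here after their values were seen. DEPTOR, an inhibitor of mTOR, was at 17.5 and 8.67 CPM in high and at 2.82 and 4.30 in low (1.88 ± 0.50, edgeR adjusted p = 0.175, DESeq2 adjusted p = 0.0083). Its log2 fold change ran from 1.28 without high replicate 1 to 2.30 without high replicate 2. DESeq2 lost the call without high replicate 1, low replicate 1 or low replicate 2. RRAGD, a Rag GTPase that links amino acids to mTORC1, was at 41.3 and 54.2 CPM in high and 11.7 and 25.6 in low (1.36 ± 0.43, edgeR adjusted p = 0.196, DESeq2 adjusted p = 0.035). RRAGD had 0.97 without low replicate 1 (DESeq2 adjusted p = 0.515) and 2.04 without low replicate 2.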
